A study of Sus scrofa with 5 samples.

Results

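Antioxidant enzymes and redox regulators were examined in whole ovarian follicles of the Indian Ghoongroo pig (Sus scrofa). The set held 35 genes chosen by name, of the 30822 genes listed in each file. They covered superoxide dismutases, peroxidases, the thioredoxin and glutaredoxin systems, glutathione synthesis, the NRF2 regulators and methionine sulfoxide reductases. RNA was sequenced from 3 large-follicle and 2 small-follicle libraries, all from females, and the study asked which genes differ between the follicle sizes. The labels name no treatment beyond follicle size and call the replicates biological. The sources used here do not give age, follicle diameter, the number of follicles per library or whether the libraries came from separate animals. Libraries are numbered as in the labels, large 1 to 3 and small 1 to 2, and values by library are in that order. P-values therefore measure only the spread between these samples.

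Reactive oxygen species arise in steroid-forming cells from mitochondrial respiration and from the cytochrome P450 reactions of steroid synthesis. Superoxide dismutases turn superoxide into hydrogen peroxide, which catalase, glutathione peroxidases and peroxiredoxins reduce to water. Glutathione peroxidases draw their electrons from glutathione and most peroxiredoxins draw theirs from thioredoxin. NFE2L2, also called NRF2, is the transcription factor that raises many of these genes under oxidative stress, and KEAP1 marks it for degradation in unstressed cells.

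All 35 genes were found, each in 1 row, and 34 passed the filter of FPKM 1 in 2 libraries. FPKM counts fragments relative to gene length and library size. The exception was the cystine transporter SLC7A11, at 0.725, 0.2035 and 0.593 FPKM in large and 0.618 and 0.991 FPKM in small follicles. These values rest on 19 to 93 fragments per library, so SLC7A11 was detected in each library but was not tested.

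Library totals, worked back from the FPKM values, ranged from 9523739 to 11507527 fragments. The members took 0.640% to 0.718% of the fragments of each library. Follicle markers were present: the granulosa list (11 genes, among them FSHR and INHA) summed to 6844 to 15487 FPKM in large and 5152 to 7655 FPKM in small follicles. INHA was the largest term of that sum in each library, at 4474 to 11739 FPKM in large and 2876 to 3515 FPKM in small follicles. By contrast, 8 of the 11 granulosa markers had log2 fold changes below 0 (median -0.53), where 39.9% of all genes tested were above 0. Of these 8, 6 were without overlap, FSHR among them, where 15.2% of all genes tested were lower without overlap. INHA and CYP19A3 were higher without overlap, where 10.9% of all genes tested were. INHBB was called lower in large follicles (log2 fold change -2.94, limma adjusted p = 0.0237). The part of granulosa cells in the members' levels was not tested. The theca list (10 genes, among them CYP17A1 and INSL3) summed to 3223 to 6925 FPKM in large and 2255 to 3123 FPKM in small follicles. These sums overlapped under median-of-ratios and common-sum scaling. COL1A1 was the largest term in each library, and its groups overlapped (log2 fold change 0.17). Of the 10 theca markers 6 were above 0 and 4 below, where 39.9% of all genes tested were above 0. CYP17A1 was called higher in large follicles (log2 fold change 3.07, limma adjusted p = 0.0121), while GLI1 was lower without overlap (-1.02). In such bulk samples, fewer cells of a type and less RNA per cell cannot be told apart. Transcripts of the mitochondrial genome took 3.46%, 6.34% and 3.09% of fragments in the large and 8.53% and 4.22% in the small libraries.

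The levels of the members spanned more than the differences between follicle sizes. GPX3, the secreted glutathione peroxidase of extracellular fluids, was the most abundant, with a mean of 1152 FPKM over the 5 libraries, or 25.4% of the summed FPKM of the set. SELENOP, which carries selenium between tissues, followed at 652 FPKM and PRDX2, a cytosolic peroxiredoxin, at 531 FPKM. Below them came GPX1 at 282.5, TXN at 268 and GPX4 at 190 FPKM. At the other end of the tested members were SRXN1 at 7.11, MSRA at 4.86 and GLRX2 at 4.48 FPKM. Of the dismutases, cytosolic SOD1 had 181 FPKM, while mitochondrial SOD2 had only 8.62 FPKM, a ratio of 18.7 to 31.9 across the libraries.

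**Figure D1:**
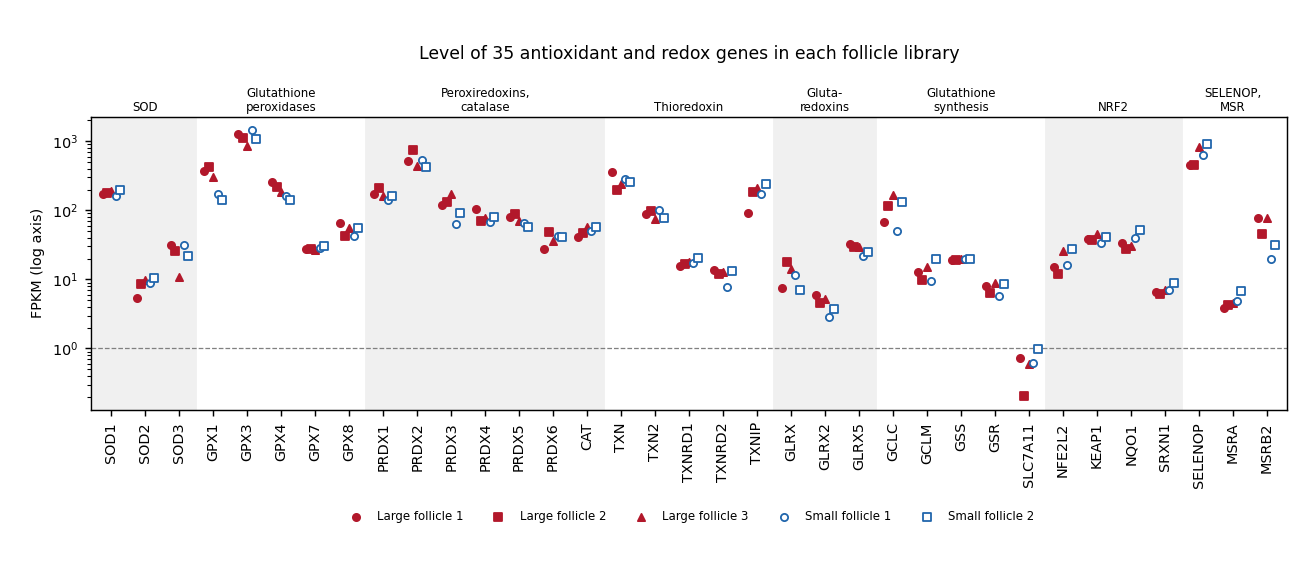
FPKM of each of the 35 genes in each library on a log axis, grouped by role; filled red symbols are large and open blue symbols small follicles, and the dashed line marks 1 FPKM. GPX3 is the most abundant gene and SLC7A11, with a mean of 0.626 FPKM, is the least abundant.

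GPX1 was the member whose change passed the test: its mRNA rose 2.32-fold in large follicles. Genes were tested with limma on log2(FPKM + 1), and a gene was called at a Benjamini-Hochberg adjusted p under 0.05 over the 13087 genes tested. Among the 34 tested members 1 was called higher and 0 lower in large follicles, beside 0.978% of all genes tested called (0.535% higher and 0.443% lower). At an unadjusted p under 0.05 there were 5 members, GPX1, MSRB2, PRDX3 and GPX4 with higher values in large follicles and NQO1 with lower ones. That is 14.7% of the members, beside 10.4% of all genes tested (4.76% higher and 5.67% lower). Values did not overlap between the groups in 11 members, or 32.4%, beside 26.1% of all genes. Of these, 8 were higher in large follicles, where 10.9% of all genes tested were, and 3 were lower, where 15.2% were. GPX1, MSRB2, PRDX3, GLRX2 and NQO1 were also without overlap under median-of-ratios and common-sum scaling. GPX4, GPX7, PRDX1, PRDX5, GLRX5 and MSRA overlapped under at least 1 of these. GPX8, GSR, KEAP1 and TXNRD2 became higher without overlap under median-of-ratios scaling, and GPX3 lower without overlap under common-sum scaling. The share of members without overlap was 32.4% beside 29.4% of all genes under median-of-ratios scaling, and 23.5% beside 22.2% under common-sum scaling. Log2 fold changes, large minus small, were above 0 in 17 members and below 0 in 17, and 39.9% of all genes tested were above 0. The median of the members was -0.01, and that of all genes tested was -0.08. With the libraries scaled to a common sum these medians were -0.14 and -0.19.

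**Figure D2:**
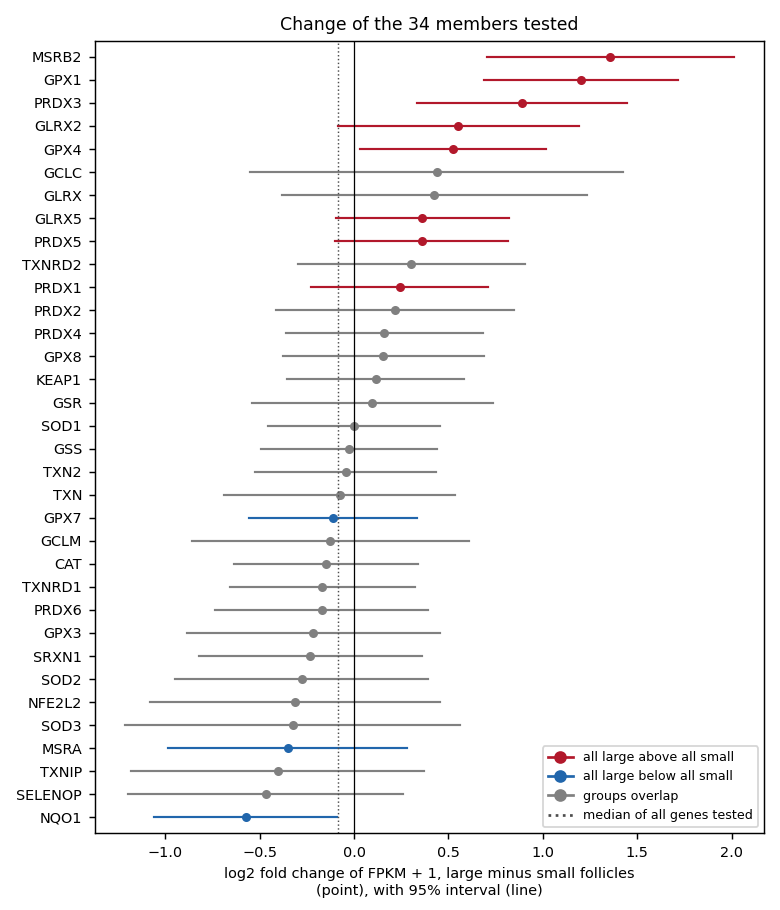
Log2 fold change of FPKM + 1, large minus small follicles, with its 95% interval for the 34 members tested; colour shows whether the 3 large and 2 small libraries overlap, and the dotted line is the median of all genes tested. MSRB2, GPX1 and PRDX3 lie farthest to the right and NQO1 farthest to the left, and most intervals cross 0.

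GPX1 (gene 397403, Sscrofa11.1 chromosome 13, 31916269 to 31917337) encodes the cytosolic selenium-dependent peroxidase that clears hydrogen peroxide. It had 367, 425 and 304 FPKM in large and 172 and 143 FPKM in small follicles. Every large library was above both small ones, on 2545 to 3393 fragments in large and 1148 to 1311 in small follicles. Means were 366 ± 60.3 FPKM (SD, n = 3) and 158 ± 20.6 FPKM (SD, n = 2). The log2 fold change was 1.201 (SE 0.23, 95% interval 0.69 to 1.715, limma adjusted p = 0.0476). The call sat at the threshold: the limma adjusted p was 0.0537 and 0.0522 with pseudocounts of 0.1 and 5, 0.0685 with limma voom on fragments, 0.0852 without a variance trend, 0.0678 at a mean FPKM of at least 5, 0.151 with no filter and 0.164 with median-of-ratios scaling. It was also lost without large library 1 (0.149), small library 1 (0.128) or small library 2 (0.3065). Over all alternatives it ranged from 0.0126 to 0.3065, although the log2 fold change stayed between 1.07 and 1.33 whichever library was left out.

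Other glutathione peroxidases differed less. GPX4, which reduces peroxidized membrane lipids, had 254, 216 and 182 FPKM in large and 159 and 141 FPKM in small follicles. Its groups did not overlap, but the log2 fold change of 0.52 (95% interval 0.03 to 1.015) did not pass (limma adjusted p = 0.449). GPX3 had 1289, 1124 and 841 FPKM in large and 1442 and 1066 FPKM in small follicles, and the groups overlapped as deposited. Its log2 fold change was -0.21, with an interval of -0.89 to 0.46. GPX7 and GPX8 are peroxidases of the endoplasmic reticulum that carry cysteine in place of selenocysteine. GPX7 had 27.9, 27.6 and 26.65 FPKM in large and 28.7 and 30.7 FPKM in small follicles, a narrow range in which no large library reached a small one. Its log2 fold change was -0.11 (interval -0.56 to 0.33). GPX8 overlapped as deposited, at means of 54.3 ± 11.03 FPKM (SD, n = 3) and 48.4 ± 8.86 FPKM (SD, n = 2).

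The balance within the family therefore differed between the sets of libraries, as a description with no test. The GPX1 level was 1.45, 1.96 and 1.67 times the GPX4 level in large and 1.08 and 1.02 times in small follicles. GPX3 exceeded GPX1 by 2.65 to 3.51 times in large and by 7.45 to 8.37 times in small follicles. Summed over the 5 family members the groups overlapped, at 1408 to 2003 FPKM in large and 1435 to 1844 FPKM in small follicles.

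**Figure D3:**
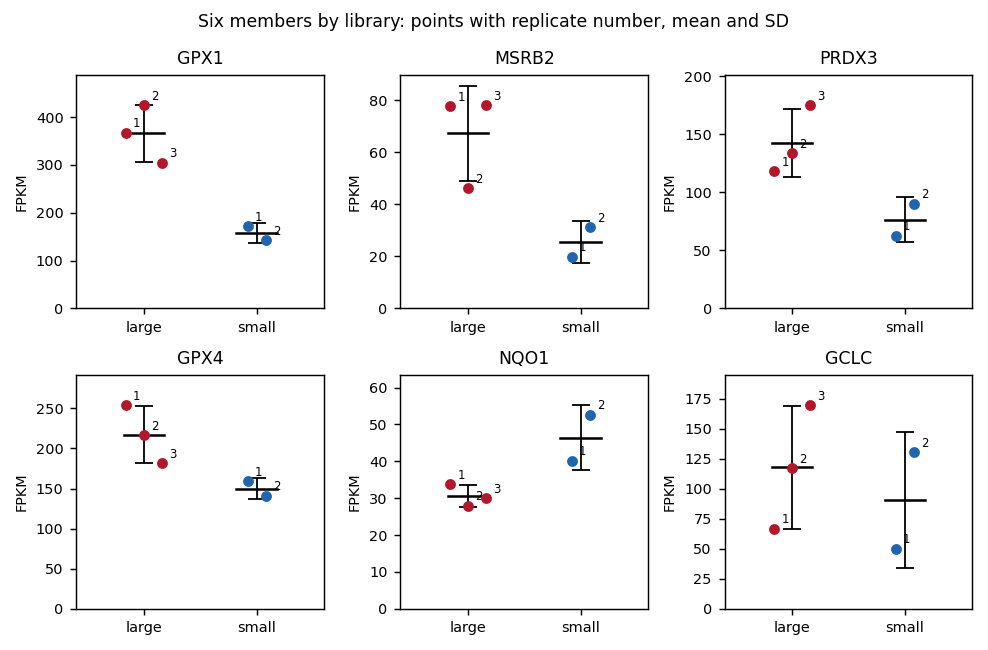
FPKM by library for the 5 members at an unadjusted p under 0.05 and for GCLC, which was chosen after its values were seen; points carry replicate numbers, and bars show mean and SD (n = 3 large, n = 2 small). GPX1, MSRB2, PRDX3 and GPX4 have every large library above both small ones, NQO1 the reverse, and GCLC overlaps.

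Among peroxiredoxins, PRDX3, the mitochondrial form that depends on thioredoxin 2, had the widest difference. It had 118, 133 and 175 FPKM in large and 62.7 and 90.3 FPKM in small follicles. All large values were above the small ones, with means of 142 ± 29.4 FPKM (SD, n = 3) and 76.5 ± 19.5 FPKM (SD, n = 2), a 1.86-fold difference. The log2 fold change of 0.89 (SE 0.25, interval 0.34 to 1.44) did not pass (limma adjusted p = 0.173), and it ranged from 0.63 to 1.149 when single libraries were left out. PRDX5, found in mitochondria, peroxisomes and cytosol, had 79.2, 89.6 and 69.4 FPKM in large and 65.5 and 57.5 FPKM in small follicles. PRDX1, a cytosolic form, had 170, 208 and 161.5 FPKM in large and 143 and 159 FPKM in small follicles. Neither overlapped, at log2 fold changes of 0.36 and 0.24, and neither passed (limma adjusted p = 0.631 and 0.796).

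PRDX2, abundant also in red blood cells, had 523, 737 and 437 FPKM in large and 539 and 419 FPKM in small follicles. Large follicle replicate 2 was the highest and the other libraries intermixed (log2 fold change 0.22, interval -0.41 to 0.85). The hemoglobin chain HBB also peaked in that library, at 1663 FPKM, against 995 to 1295 FPKM in the other large and 231 to 697 FPKM in the small libraries. The 8 red blood cell markers summed to 1007 to 1681 FPKM in large and 235 to 703.5 FPKM in small follicles. All 4 markers that could be tested had higher values in large follicles, where 39.9% of all genes tested had log2 fold changes above 0. AHSP, among the 4, passed the filter only through large libraries, so the filter largely set its sign. Of those not tested, HBQ1 had means of 0.311 FPKM in large and 0.4325 FPKM in small follicles, and EPB42 0.742 and 0.296 FPKM. The membrane marker SLC4A1 was at or below 0.0241 FPKM. The part of these cells in the PRDX2 level was not tested. PRDX4 of the endoplasmic reticulum, PRDX6, which also reduces phospholipid peroxides, and peroxisomal CAT all overlapped, at log2 fold changes of 0.16, -0.17 and -0.15. CAT had 48.5 ± 8.69 FPKM (SD, n = 3) in large and 53.5 ± 4.63 FPKM (SD, n = 2) in small follicles. Over these 7 genes 5 had log2 fold changes above 0 and 2 below, and the signs were the same under each scaling tried. Their summed level was 1014 to 1333 FPKM in large and 903 to 971 FPKM in small follicles, without overlap as deposited but with overlap under median-of-ratios (904 to 1602 against 741.5 to 1077 FPKM) and common-sum scaling (973 to 1264.5 against 943 to 1040 FPKM).

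The superoxide dismutases did not separate the groups. SOD1 had 174, 178 and 191 FPKM in large and 163 and 200 FPKM in small follicles, so that the small libraries enclosed the large ones. Its log2 fold change of 0.00 (interval -0.46 to 0.46) turned to -0.067 under quantile normalization and -0.124 under a common-sum scaling. SOD2 had 7.95 ± 2.27 FPKM (SD, n = 3) in large and 9.64 ± 1.28 FPKM (SD, n = 2) in small follicles. SOD3, the secreted form, ranged from 10.9 to 31.1 FPKM among large libraries and from 21.6 to 31.8 FPKM in small ones. The 95% intervals of the log2 fold change ran from -0.95 to 0.39 for SOD2 and from -1.21 to 0.56 for SOD3.

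Each of the 5 thioredoxin system genes overlapped between the groups as deposited, while TXNRD2 was without overlap under median-of-ratios scaling. The summed level of the 5, 506 to 570.5 FPKM in large and 580 to 612 FPKM in small follicles, overlapped under both other scalings. TXN, the cytosolic thioredoxin, had 362, 198.5 and 238 FPKM in large and 284 and 260 FPKM in small follicles, with both small libraries inside the large range. Mitochondrial TXN2 had 86.7 ± 10.7 FPKM (SD, n = 3) in large and 89.7 ± 15.5 FPKM (SD, n = 2) in small follicles. Log2 fold changes were -0.08 for TXN and -0.045 for TXN2, and both were above 0 with median-of-ratios scaling, at 0.014 and 0.045. The reductases that recharge them, TXNRD1 and TXNRD2, had log2 fold changes of -0.17 (interval -0.66 to 0.32) and 0.30 (interval -0.30 to 0.91). TXNIP, which binds and inhibits thioredoxin, had 91.1, 183 and 212 FPKM in large and 171 and 240 FPKM in small follicles. Large follicle replicate 1 stood apart as the lowest, and the log2 fold change was -0.41 (interval -1.18 to 0.37).

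All 3 glutaredoxins, a family that works with glutathione, had log2 fold changes above 0, and 0 of the 3 passed the test. GLRX5, a mitochondrial protein of iron-sulfur cluster assembly, had 32.6, 29.45 and 29.5 FPKM in large and 21.9 and 25.2 FPKM in small follicles. GLRX2, another mitochondrial form, had 6.04, 4.52 and 5.26 FPKM in large and 2.83 and 3.72 FPKM in small follicles. Both were without overlap, at log2 fold changes of 0.36 and 0.55 (limma adjusted p = 0.627 and 0.570), and GLRX2 rests on 52 to 134 fragments per library. Cytosolic GLRX overlapped, with 7.596 to 17.8 FPKM in large and 7.05 to 11.5 FPKM in small follicles. The signs of the 3 genes were the same under each scaling tried.

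In glutathione synthesis, the ligase subunits GCLC and GCLM varied more between libraries than between follicle sizes. GCLC, the catalytic subunit of the rate-limiting ligase, had 66.8, 117 and 169 FPKM in large and 50.2 and 130 FPKM in small follicles. The 2 small libraries thus differed by more than the group means, which were 118 ± 51.3 FPKM (SD, n = 3) and 90.3 ± 56.75 FPKM (SD, n = 2). Its log2 fold change of 0.44 (interval -0.55 to 1.425) was -0.24 without small library 1, and the fold of means was 2.35 without small library 2 against 1.305 with all libraries. GCLM, the modifier subunit, had 12.97, 9.65 and 14.9 FPKM in large and 9.36 and 19.4 FPKM in small follicles. GCLC exceeded GCLM by 5.15 to 12.15 times in large and 5.36 to 6.71 times in small follicles, with overlap. GSS, which completes glutathione, was the steadiest member, between 19.1 and 19.9 FPKM in every library, a coefficient of variation of 1.85%. GSR, which recycles oxidized glutathione, ranged from 6.32 to 8.82 FPKM in large and from 5.81 to 8.52 FPKM in small follicles. The log2 fold changes of GSS and GSR, -0.03 and 0.10, changed sign with scaling: GSS was 0.06 under median-of-ratios scaling and 0.04 under quantile normalization, and GSR was -0.015 with a common sum.

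NQO1, a quinone reductase and textbook NRF2 target, had lower values in large follicles. It had 33.8, 27.98 and 30.04 FPKM in large and 40.1 and 52.6 FPKM in small follicles, without overlap. Means were 30.6 ± 2.96 FPKM (SD, n = 3) and 46.4 ± 8.83 FPKM (SD, n = 2). The log2 fold change of -0.575 (SE 0.215, interval -1.06 to -0.09) did not pass (limma adjusted p = 0.364). NFE2L2 had 14.95, 12.02 and 25.5 FPKM in large and 15.95 and 27.4 FPKM in small follicles, with large library 3 and small library 2 high and the others low. Its log2 fold change was -0.31 (interval -1.08 to 0.45), and 0.06 without small library 2. NFE2L2 shares 1256 bases with HNRNPA3 on the other strand, a gene at 39.55 to 77.5 FPKM, so its level is uncertain.

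KEAP1 had 38.7, 37.7 and 44.8 FPKM in large and 33.1 and 41.7 FPKM in small follicles. The log2 fold change was 0.11, which a common-sum scaling turned to -0.009. SRXN1, the sulfiredoxin that restores overoxidized peroxiredoxins and another NRF2 target, had 6.57 ± 0.503 FPKM (SD, n = 3) in large and 7.92 ± 1.29 FPKM (SD, n = 2) in small follicles. None of these 4 NRF2 genes was called.

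MSRB2, a mitochondrial methionine sulfoxide reductase, had the widest difference of the set. It had 77.7, 46.2 and 78.2 FPKM in large and 19.85 and 31.2 FPKM in small follicles. Every large library was above both small ones, and large library 2 was the lowest of its group. Means were 67.3 ± 18.3 FPKM (SD, n = 3) and 25.6 ± 8.05 FPKM (SD, n = 2), a 2.64-fold difference. The log2 fold change of 1.36 (SE 0.29, interval 0.70 to 2.01) missed the threshold (limma adjusted p = 0.0735). MSRB2 was called in other settings: its limma adjusted p was 0.0223 under median-of-ratios scaling, 0.0479 under quantile normalization, 0.00226 without large library 2 and 0.0407 on leaving out large library 3, within a range of 0.00226 to 0.330 over all alternatives. MSRA, which repairs the other stereoisomer of methionine sulfoxide, had 3.88, 4.29 and 4.60 FPKM in large and 4.79 and 6.74 FPKM in small follicles. MSRA was without overlap in the other direction, and its log2 fold change of -0.35 did not pass (limma adjusted p = 0.770). The ratio of MSRB2 to MSRA was 10.8 to 20.04 in large and 4.14 to 4.64 in small follicles.

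SELENOP had 452, 447 and 815 FPKM in large and 636 and 907 FPKM in small follicles. Large follicle replicate 3 and small library 2 were again the high libraries. These 2 libraries also had the highest median-of-ratios scaling factors of their groups, at 1.121 and 1.218. The log2 fold change was -0.47 (interval -1.20 to 0.26, limma adjusted p = 0.716).

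**Figure D4:**
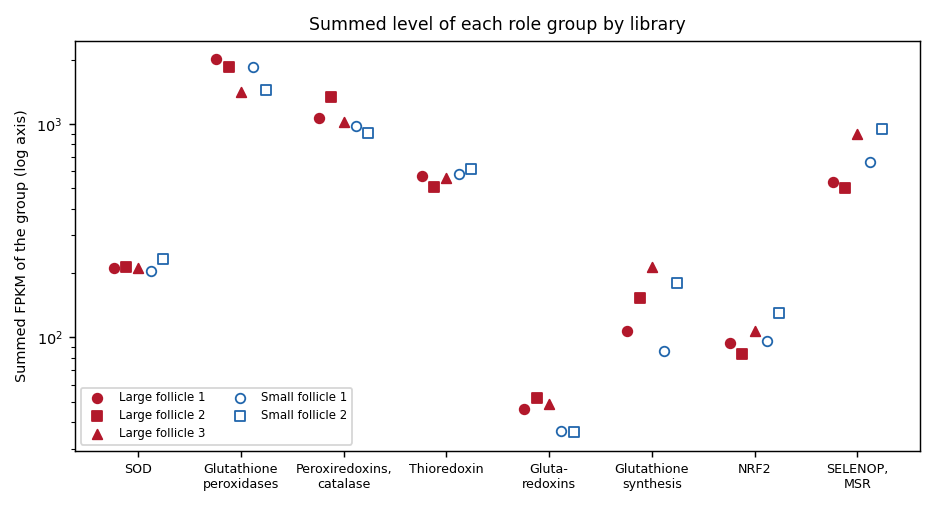
Summed FPKM of the members of each role group in each library, on a log axis; filled red symbols are large and open blue symbols small follicles. Large libraries lie above small ones for the glutaredoxins (46.2 to 51.7 against 36.0 to 36.2 FPKM) and the peroxiredoxins with catalase, and below them for the thioredoxin system (506 to 570.5 against 580 to 612 FPKM) in the deposited values, while the other 5 groups overlap. Under median-of-ratios and common-sum scaling only the glutaredoxins of these 3 groups stay apart. The NRF2 group is lower in large libraries without overlap under median-of-ratios scaling (92.0 to 100.7 against 106.6 to 107.2 FPKM), but not under common-sum scaling.

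Libraries of 1 group differed in a shared pattern. In 15 of the 34 tested members, or 44.1%, large library 3 was the highest of the large libraries and small library 2 exceeded replicate 1. The same order held in 49.3% of all genes tested. It also held in the median-of-ratios scaling factors, at 1.023, 0.8315 and 1.121 in the large and 0.9018 and 1.218 in the small libraries. These orders were taken on the deposited values, without that scaling. NFE2L2, SELENOP, TXNIP, GCLC, GCLM, PRDX3 and MSRB2 were among the 15. The reverse order, with large library 2 and small library 1 high, held in 6 members, or 17.6%, against 7.71% of all genes. These were GPX1, GLRX, PRDX2, PRDX5, PRDX6 and TXN2. Large follicle replicate 2 and small library 1 also had the highest mitochondrial transcript share of their groups and the fewest genes at an FPKM of 1 or more, 11784 and 12101 against 12489 to 13064 elsewhere. The part of these differences in the members' levels was not tested.

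**Figure D5:**
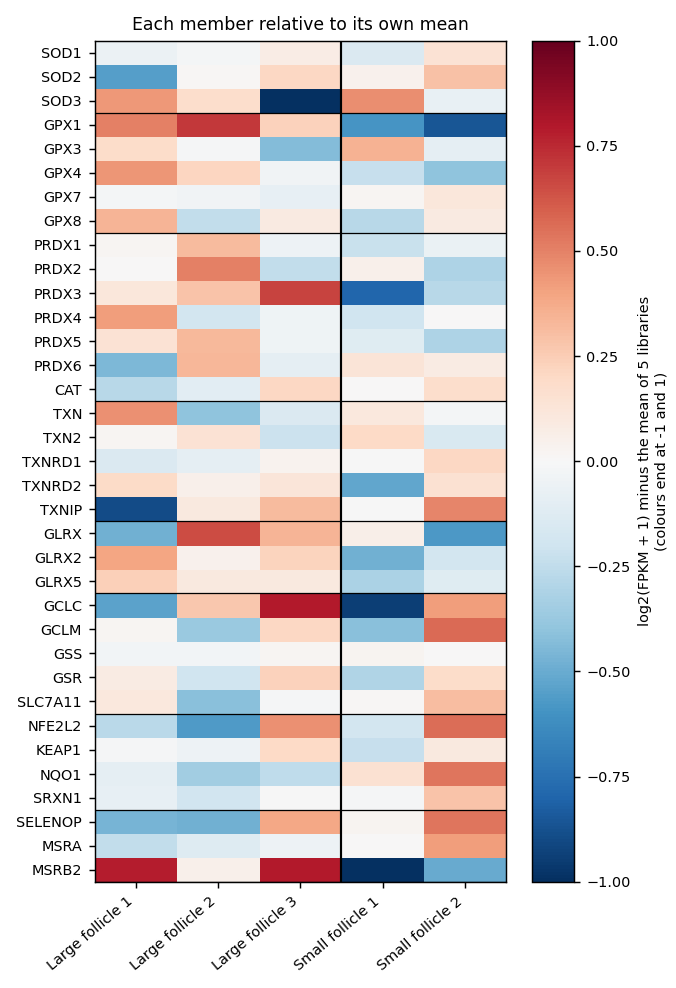
Each member's log2(FPKM + 1) in each library minus its mean over the 5 libraries, by role group; red is above and blue below the gene's own mean. GPX1 is red in all large and blue in all small libraries, while NFE2L2 and SELENOP are highest in large library 3 and small library 2.

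Markers of other cells were compared in the same way. Of 13 myeloid markers, all tested, 12 had log2 fold changes above 0, where 39.9% of all genes tested did. S100A8, S100A9 and S100A12, counted among the 12, passed the filter only through large libraries, so the filter largely set their sign. LYZ was called, 1 of the 13, beside 0.978% of all genes tested. The 13 markers summed to 396 to 584.5 FPKM in large and 284 to 315 FPKM in small follicles, without overlap. None was at 0 in every library, but S100A8, a neutrophil protein, was listed at 0 in both small libraries. Endothelial markers summed to 347 to 372 FPKM in large and 279.5 to 285 FPKM in small follicles, with 7 of 9 above 0. Under median-of-ratios scaling these sums overlapped (309.4 FPKM in large library 3 against 310 FPKM in small library 1), but not under common-sum scaling. AQP1 was called, 1 of the 9, beside 0.978% of all genes tested. It had 81.75 to 85.5 FPKM in large and 36.2 to 40.5 FPKM in small follicles. The part of these cells in the GPX1 and MSRB2 levels was not tested.

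Genes that break down or use glutathione were examined beside the members. Of 17 listed, 15 were tested and 0 were called, while 4, or 26.7%, were at an unadjusted p under 0.05, all with higher values, beside 4.76% of all genes tested that were so and higher. With limma voom on fragments 0 of all 102 related genes tested were called, as in limma on FPKM. In limma on FPKM 17, or 16.7%, were at an unadjusted p under 0.05, beside 10.4% of all genes tested. These 17 include DIO2 and AOX1, described below, which passed the filter only through large libraries. DPEP1, a dipeptidase that splits cysteinylglycine, had 8.19, 6.62 and 5.88 FPKM in large and 1.965 and 1.86 FPKM in small follicles (log2 fold change 1.43, limma adjusted p = 0.0553). It passed with a pseudocount of 0.1 (limma adjusted p = 0.0484), under median-of-ratios scaling (0.0222) or quantile normalization (0.0341), with no variance trend (0.0421) and without large library 2 (0.0373) or 3 (0.0435), within a range of 0.0222 to 0.278 over all alternatives. GGT1, the membrane enzyme that opens glutathione breakdown, had 71.2, 115 and 70.8 FPKM in large and 40.1 and 36.2 FPKM in small follicles (log2 fold change 1.11, limma adjusted p = 0.0877). The summed level of the list was 381.5 to 446 FPKM in large and 292.5 to 304 FPKM in small follicles.

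Of the other selenoproteins and selenium machinery, 14 of 21 tested genes had log2 fold changes above 0 and 7 below, and 0 were called. Among all genes tested 39.9% were above 0. An unadjusted p under 0.05 was reached by 6 of the 21, or 28.6%, 4 higher and 2 lower, beside 10.4% of all genes tested. DIO2, which activates thyroid hormone, had 1.88 to 2.93 FPKM in large and 0.124 to 0.671 FPKM in small follicles (log2 fold change 1.36, limma adjusted p = 0.0746). DIO2 passed the filter only through large libraries, so the filter largely set its sign in these counts. SELENON, a calcium-related protein of the endoplasmic reticulum, went the other way, with 88.65 to 125 FPKM in large and 159 to 189.5 FPKM in small follicles (limma adjusted p = 0.214). Of the metallothioneins, small metal-binding proteins, and metal chaperones 5 were tested, with 3 above 0, 2 below and 0 called. The metallothioneins MT3 and MT1A were the 2 below. In this list 3 genes, or 60%, were at an unadjusted p under 0.05, 1 higher and 2 lower, beside 10.4% of all genes tested. MT3 had 26.05, 19.1 and 16.5 FPKM in large and 71.6 and 36.2 FPKM in small follicles (log2 fold change -1.29, limma adjusted p = 0.105). MT1A had 15.02, 1.33 and 6.355 FPKM in large and 25.1 and 80.5 FPKM in small follicles (log2 fold change -2.83, limma adjusted p = 0.126). Both passed under a common-sum scaling, at limma adjusted p values of 0.0295 and 0.0261, within ranges over all alternatives of 0.0295 to 0.480 for MT3 and 1.31e-07 to 0.582 for MT1A. Metallothionein genes resemble each other closely, and fragments may have been split between copies, so both levels are uncertain.

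Genes that supply NADPH, the electron source of both thioredoxin and glutathione reductases, were split evenly in sign. Of 16 tested, 8 were above 0 and 8 below, where 39.9% of all genes tested were above 0. In this list 0 were called and 0 were at an unadjusted p under 0.05. The median log2 fold change was 0.03, beside -0.08 for all genes tested. ME1 and PGLS had the smallest p, at limma adjusted p values of 0.506 and 0.579. Among oxidant-forming enzymes 8 of 13 tested were above 0 and 0 were called. There 3, or 23.1%, were at an unadjusted p under 0.05, 2 higher and 1 lower, beside 10.4% of all genes tested. AOX1, an aldehyde oxidase, had log2 fold change 0.81 and NOS2, the inducible nitric oxide synthase, had -0.93 (limma adjusted p = 0.340 and 0.317). AOX1, at 0.183 and 0.198 FPKM in small follicles, passed the filter only through large libraries. The filter therefore largely set the sign of AOX1 in these counts. In the list of other NRF2 pathway genes 7 of 18 were above 0, with 0 called and 0 at an unadjusted p under 0.05. EPHX1, an epoxide hydrolase, and MAFK, a DNA-binding partner of NRF2, had log2 fold changes of 0.64 and -0.57 (limma adjusted p = 0.551 and 0.543). Among other thioredoxin-fold and repair genes 8 of 14 were above 0, 0 were called and 1, or 7.14%, was at an unadjusted p under 0.05. TXNDC17 had a log2 fold change of 0.795 and TXNL1 one of -0.33 (limma adjusted p = 0.202 and 0.680).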

How the data were processed

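The deposited values are FPKM per gene, computed by the authors, per the file headers. The build is Sscrofa11.1, and the tools are HISAT2 2.0.5, featureCounts 1.5.0-p3, StringTie 1.3.3, Trimmomatic 0.38 and FastQC 0.11.4, per the submitters' processing notes, which give no role or order. Groups and replicate numbers came from the sample titles. The 13087 genes that reached FPKM 1 in 2 libraries were tested with limma 3.58.1 in R 4.3.3. The test was moderated, two-sided and trended, on log2(FPKM + 1), on group alone, and p-values were adjusted by Benjamini-Hochberg across those genes. Values after ± are SD. The log2(FPKM + 1) scale understates changes of low genes. Library totals were worked back from the steps of the FPKM values. Of the 23353 genes above 0, 49.5% gave whole fragments, within 0.001, with the listed length, and 11791 needed a shorter length, found by search. Of the members, 21 did so with the listed length and 14 with a shorter one. For a 1500-base gene, 3 fragments amount to 0.174 to 0.210 FPKM in these libraries, which covers counting error only. The fit was tested on simulated data.

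Every member was named. Those called, without overlap or highest in their role group were given by library, and 2 genes per related list with the smallest p were named. The members and lists were chosen with earlier results of these data known. Of the members, 11 overlap another gene's span, and the sources used here do not say whether counting used the strand. Promoter and protein sequences were not analysed here. Alternatives were other pseudocounts, filters, scalings and variance priors, a replicate block, voom on fragments and each library left out. A common-sum scaling, leaving out a pair of libraries and the overlap of groups under other scalings were chosen after seeing the data.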

Additional observations from a re-analysis of the deposited data

How the results depend on the processing

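The 128 genes called over the whole table became 32 with no filter, 41 at a mean FPKM of at least 5, 201 under quantile normalization, 210 under median-of-ratios scaling and 70 in voom on fragments. Leaving out single libraries gave 29 to 268 (large library 1 gave 29, large 2 268, large 3 222, small 1 78 and small 2 60), and leaving out large library 2 together with small library 1 gave 390. The cause was not tested. The count of called members, 1 as reported, was 0 with pseudocounts of 0.1 or 5, with no filter, at a mean FPKM of at least 5, with no variance trend and with voom, 2 under quantile normalization, and 0 to 2 with single libraries left out. Leaving out large library 2 together with small library 1 gave 1, MSRB2 (limma adjusted p = 0.0102), where GPX1 missed. Called related genes, 0 as reported, were 1 with a pseudocount of 0.1, with quantile normalization and with no variance trend, 2 with median-of-ratios scaling, 2 with a common sum, 3 on leaving out that pair of libraries, and 0 to 5 with single libraries left out.

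Whether replicate numbers pair the libraries is not known. Deviations from the group means correlated at -0.001 for the pair numbered 1 and -0.449 for the pair numbered 2. With 2 small libraries their deviations mirror each other by construction, so these correlations cannot decide it. With a replicate block 157 genes, 1 member (GPX1, limma adjusted p = 0.0126) and 3 related genes were called, and SOD1, SOD3 and TXN2 changed sign, at -0.037, 0.111 and 0.052. Only large library 3 carries replicate number 3, so the block takes it up. The log2 fold changes therefore equal those without large library 3 (GPX1 1.326 in both). Of 713 comparisons of a named gene under an alternative, leaving out the pair of libraries aside, 28 changed sign, all in members that were not called. Sign changes of the replicate block count again in the fit without large library 3. On leaving out that pair SOD1 (-0.134), GCLC (-0.290), TXN (0.172), TXN2 (0.051), GSR (-0.027) and KEAP1 (-0.001) changed sign, none of them called. Scaling gave SOD1 -0.067 and GSS 0.041 (quantile), TXN 0.014, TXN2 0.045 and GSS 0.058 (median of ratios), and SOD1 -0.124, GSR -0.015 and KEAP1 -0.009 (common sum). With single libraries left out log2 fold changes ranged from -0.14 to 0.15 for SOD1, -0.61 to 0.11 for SOD3, -0.433 to 0.003 for GPX3, -0.029 to 0.339 for GPX8, -0.017 to 0.286 for PRDX4, -0.374 to 0.018 for PRDX6, -0.32 to 0.11 for TXN, -0.22 to 0.13 for TXN2, -0.03 to 0.64 for TXNRD2, -0.24 to 1.12 for GCLC, -0.62 to 0.36 for GCLM, -0.14 to 0.34 for GSR, -0.687 to 0.059 for NFE2L2 and -0.049 to 0.276 for KEAP1. With 3 and 2 libraries, intervals of most members still allow changes in either direction.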
